A study of Mus musculus with 6 samples.

Results

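The nuclear genes of oxidative phosphorylation were taken from the gene symbols of the count files by name alone. Members were symbols beginning with Ndufa, Ndufb, Ndufc, Ndufs, Ndufv, Uqcr, Cox4, Cox5, Cox6, Cox7, Cox8 or Atp5, together with Sdha, Sdhb, Sdhc, Sdhd and Cyc1, and the symbol Atp5l-ps1 was left out as a pseudogene by its name. Atp5l2, which the annotation also types as a pseudogene, was kept because its name met the rule, and it had too few reads to be tested. The rule found 92 of 34199 symbols, of which 85 had enough reads to be among the 12460 genes tested. By complex, 36 members were subunits of complex I, 4 of complex II, 9 of complex III, 18 were placed with complex IV and 16 with complex V. Ndufa4 and its paralog Ndufa4l2 were kept as a pair, because the NDUFA4 protein is now counted with complex IV rather than complex I. A further 6 members (Ndufaf1, Ndufaf2, Ndufaf3, Ndufaf4, Atp5s and Atp5sl) encode assembly factors or related proteins that are not subunits. The remaining symbol, Cox4nb, entered by its name only: it encodes a subunit of the endoplasmic reticulum membrane protein complex and is the neighbour of Cox4i1 in the genome. The rule itself uses no measured value, though it was set with earlier results of these data known.

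Oxidative phosphorylation takes place in the inner mitochondrial membrane. Complexes I and II pass electrons from NADH and succinate to ubiquinone, complex III passes them on to cytochrome c, and complex IV passes them to oxygen. Complexes I, III and IV pump protons across the membrane, and complex V, the ATP synthase, uses the returning protons to make ATP. Most of the subunits are encoded in the nucleus and the rest in mitochondrial DNA, so both genomes must be expressed for the chain to be built. Mature neutrophils are known for relying largely on glycolysis and holding few mitochondria.

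Bulk RNA-seq was carried out on HOXA9-immortalized granulocyte-macrophage progenitors (iGMPs) from C57Bl/6 mice, which all carried a Lysozyme-GFP reporter and HOXA9 fused to a mutant estrogen receptor domain, grown with stem cell factor and collected at 24 h. In CAF-1 OFF, 500 µM IPTG induced a short hairpin RNA against Chaf1b, whose protein is part of the histone chaperone CAF-1, in cells kept self-renewing by estradiol (150 ng/ml). Control cells were given IPTG and kept in estradiol as well, and in HOXA9 OFF the estradiol was washed out, which switches the fusion protein off and starts neutrophil differentiation. Each group had 2 libraries. The hairpin lines were clonal and the fusion protein and hairpin came from transduced vectors. The labels did not name the clone behind each library, say whether HOXA9 OFF received IPTG, or say that replicates were separate cultures, so the p-values measure only the spread between these libraries. For HOXA9 OFF against control, estradiol and any difference in IPTG or clone cannot be told apart. For CAF-1 OFF against control, the same holds for loss of Chaf1b and any difference in clone or vector. Total gene counts ran from 16773560 to 25170898 per library, at which 3 counts equal 0.119 to 0.179 CPM (read counts scaled to a common library size).

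Chaf1b stood at 90 and 105 CPM in control, 17.8 and 12.1 in CAF-1 OFF, and 64.6 and 61.4 in HOXA9 OFF, and was thus lowest in the libraries in which the hairpin against it was induced. The summed CPM of 5 progenitor markers was 7640 to 10100 in control, 11000 to 11900 in CAF-1 OFF and 7980 to 9930 in HOXA9 OFF. Most of this sum was Mpo, myeloperoxidase, at 4110 to 6440 CPM in control and 6670 to 8550 in HOXA9 OFF, while the other members, Cd34, Flt3, Kit and Myb, fell in HOXA9 OFF by the call rule given below (log2 fold changes of -1.86, -6.05, -1.16 and -0.68). Over 10 granulocyte and monocyte markers the sums were 402 to 631, 1050 to 1340 and 1710 to 2550, with Lyz2 at 0 in both control and both CAF-1 OFF libraries. The sums over 7 megakaryocyte and erythroid markers were 87.9 to 101, 109 to 171 and 86.3 to 89.5. In HOXA9 OFF this sum held opposite changes by the call rule, with Car2 lower (log2 fold change -3.61) and Gata1, Gfi1b and Itga2b higher (1.81, 3.43 and 1.80). The 5 lymphoid markers summed to at most 7.64 CPM in any library, with Cd3e and Cd3g at 0 throughout. These are bulk libraries, in which fewer cells of a type and less RNA per cell cannot be told apart, and the part of differentiating cells in the values that follow was not tested.

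The chain was expressed at a high level in the progenitors. Together the 92 members took 1.81% and 2.03% of all gene counts in control, 2.02% and 1.73% in CAF-1 OFF, and 1.49% in both HOXA9 OFF libraries. Alignments that were not unique, per 100 gene counts, ran in the same order. They stood at 100 and 107 in control, 107 and 92.8 in CAF-1 OFF, and 91.2 and 89.6 in HOXA9 OFF. Reads in no gene stood at 6.87 and 7.15, 5.95 and 7.3, and 7.84 and 8.26. The part of these library traits in the members' values was not tested. Per kb of transcript, the highest member in control was Atp5b, the catalytic beta subunit of ATP synthase, at 1480 CPM per kb. Next on the same scale stood Cox4i1, a complex IV subunit, at 1250 CPM per kb, Atp5g3 of the membrane ring of ATP synthase at 860, the alpha subunit gene Atp5a1 at 813 and Uqcrq of complex III at 792. The highest members of complexes I and II were lower, Ndufb8 at 272 CPM per kb and Sdhd, a membrane anchor of succinate dehydrogenase, at 293.

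Several complex IV subunits exist as isoforms used in different tissues, and in each family the broadly used isoform was the one read here. Cox4i1 reached 1250 CPM per kb in control, whereas Cox4i2 stood at 0.148. Cox6b1 reached 650 CPM per kb against 0.107 for Cox6b2, and Cox8a 727, with Cox8b and Cox8c at 0 counts in all 6 libraries, as was Cox7b2. Cox7a2 stood at 311 CPM per kb and Cox7a1, the heart and skeletal muscle isoform, at 6.65. Cox6a2, also known from heart and skeletal muscle, was the exception in showing a clear level, at 87.4 CPM per kb beside 768 for Cox6a1. The 7 members without enough reads to be tested were Cox4i2, Cox6b2, Cox7b2, Cox8b, Cox8c, Atp5l2 and Atp5g2.

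Reads of some members could come from more than 1 place in the genome. Many of these genes have processed copies in the genome, and of 91 members with a coding transcript in the annotation, 27 shared at least 10% of their 50-base stretches with another place in the mouse genome. The share was over 50% for 9 members, namely Atp5g2 (100%), Atp5l (89.4%), Atp5g1 (86.8%), Ndufs5 (80%), Cox7c (71.5%), Atp5h (67.9%), Cox5b (62.7%), Uqcrb (61.5%) and Cox7a2l (54.3%). Atp5g1, Atp5g2 and Atp5g3 encode the same mature ring protein, and with shares of 86.8%, 100% and 0% they stood at 10.8, 0.528 and 860 CPM per kb in control. Atp5g2 had 5 to 10 counts per library. The levels of these 9 members are therefore uncertain, and a fold change in them describes only the reads that could be placed. Overlap with a gene on the opposite strand of at least 10% of exon bases concerned Ndufb6 (39%, with 2010003O02Rik), Cox5a (38.7%, with Gm17596), Ndufa13 (30.2%, with Tssk6), Ndufb11 (12.9%, with Rbm10), Atp5o (15.8%, with Gm15976), Atp5j (12.7%, with Gabpa) and Cox6a2 (10%, with Itgad), and the strand setting of the counting was not given in the sources used here.

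Against control, CAF-1 OFF showed no member past the cutoffs. Calls were made with edgeR's quasi-likelihood test at 1.5-fold and an FDR, adjusted by Benjamini and Hochberg over all genes tested, under 0.05. On this rule 0 of 85 members were called, where 0.0321% of all 12460 genes (4 genes) were called in either direction. Without the fold minimum the count was also 0, and the share of all genes again 0.0321%. At an unadjusted p under 0.05 there were 0 members as well, beside 807 genes higher and 523 lower in the whole table, and DESeq2's Wald test also called 0 members, where it called 1.60% of the 11976 genes it gave an adjusted p (192 genes, of which 163 were higher, or 1.36%). With no expression filter edgeR called 378 of 19883 genes, of which 1 was a member, Cox6a2. The median log2 fold change of the members was -0.03, with 35 higher and 50 lower, and that of all genes -0.004. Both CAF-1 OFF libraries lay above both controls in 5 members (20.1% of all genes) and below both in 7 (20.0% of all genes). Summed over complex I, the libraries stood at 4053 and 4519 CPM in control and at 4735 and 3845 in CAF-1 OFF. For complex V the sums were 7296 and 7934 CPM in control and 7866 and 7046 in CAF-1 OFF. In each of complexes I to V the CAF-1 OFF libraries lay on either side of the control mean.

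**Figure D1:**
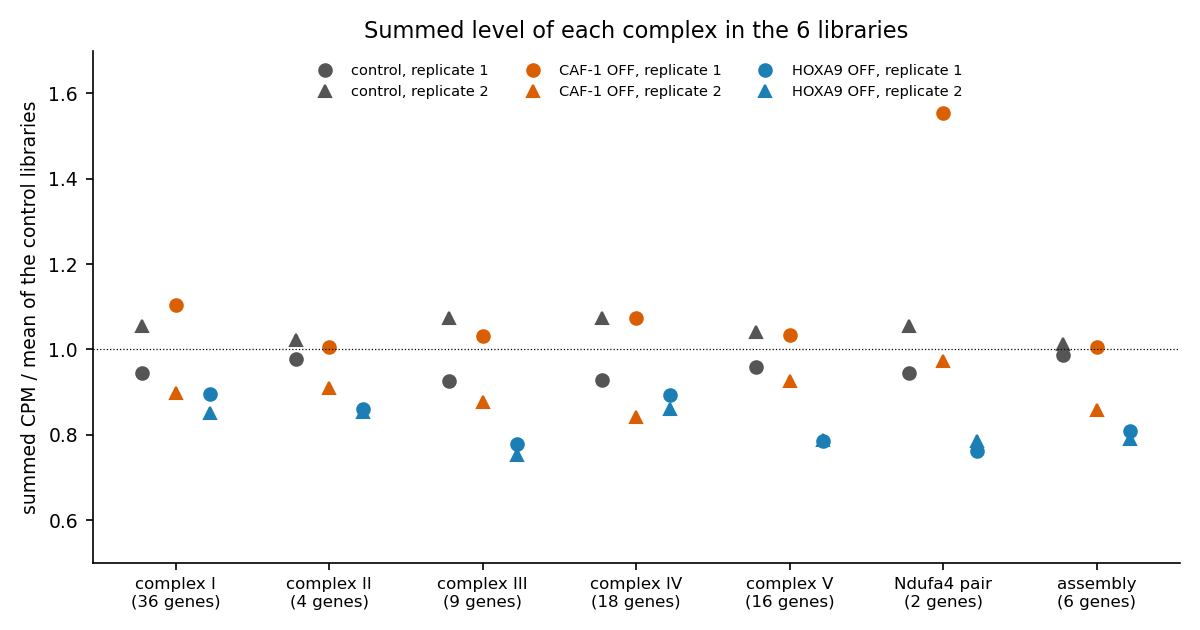
Summed CPM of the members of each complex in each of the 6 libraries, divided by the mean of both control libraries (linear axis that starts at 0.5; circles are replicate 1 and triangles replicate 2; Cox4nb left out). Both HOXA9 OFF libraries lie below both control libraries in every set, while the CAF-1 OFF libraries are spread apart, with replicate 1 above replicate 2 each time.

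Members moved together between the CAF-1 OFF libraries themselves. Of 83 members with a mean of at least 5 CPM, 80 were higher in replicate 1 than in replicate 2, with a median log2 ratio of 0.34, whereas over all 9615 genes at that level 50.9% were. In control, 10 of 83 were higher in replicate 1 (median -0.17), and in HOXA9 OFF 57 of 83 (median 0.07). Transcript length moved with this gap. All 48 members with a transcript under 1 kb were higher in CAF-1 OFF replicate 1 (median 0.38), and 32 of 35 longer ones were (median 0.23). Other short genes showed it too: of 819 other protein-coding genes with under 1.5 kb of exon, 88.4% were higher in CAF-1 OFF replicate 1 (median 0.27), against 46.7% of 8509 longer ones (median -0.02). Cytosolic ribosomal protein genes under 1.5 kb did likewise, 30 of 31 being higher (median 0.34). The gap was not confined to short genes, however. Of ribosomal protein genes of 1.5 kb and over 29 of 35 were higher (median 0.27), as were 35 of 37 members of that exon length (median 0.27). Whether this gap arose in the cultures or in the libraries was not tested. Without CAF-1 OFF replicate 1 the median of the members against control was -0.20, and without CAF-1 OFF replicate 2 it was 0.13. It was 0.07 without control replicate 2 and -0.09 without control replicate 1, so single libraries set both its size and its sign.

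**Figure D2:**
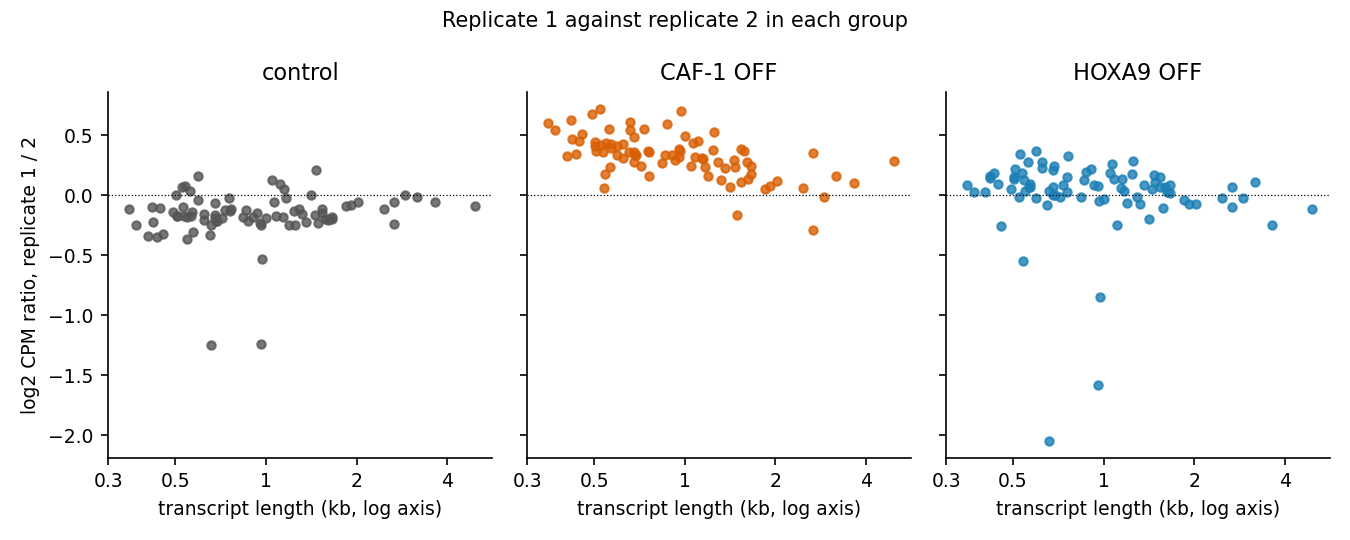
Log2 ratio of CPM in replicate 1 over replicate 2 (vertical axis) against transcript length in kb (log axis) for the 83 members with a mean of at least 5 CPM, in each group. Nearly all CAF-1 OFF points lie above 0, with a median of 0.38 for transcripts under 1 kb and 0.23 for longer ones, while the control points lie mostly below 0.

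Among the members with the highest fold changes in CAF-1 OFF against control, Ndufa4 read 295 and 326 CPM in control and 485 and 303 in CAF-1 OFF. Only replicate 1 stood above the controls (log2 fold change 0.34 ± 0.21 SE, edgeR FDR = 0.615). Ndufb3, an accessory subunit of complex I, was at 83.5 and 90.6 CPM in control and 111 and 99.7 in CAF-1 OFF. Ndufs4, another accessory subunit, was at 80.6 and 89.6 CPM in control and at 103 and 95.5 in CAF-1 OFF. Both CAF-1 OFF libraries exceeded both controls in these members, at log2 fold changes of 0.28 ± 0.14 and 0.22 ± 0.11 (SE) and edgeR FDRs of 0.537 and 0.545. Among the lower members, Ndufs8, a core iron-sulphur subunit, had a log2 fold change of -0.23 (FDR = 0.635 by edgeR), with overlapping libraries.

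Cox6a2 (chr7:135348950-135349880, minus strand, NCBIM37) had the lowest fold change of any tested member in both comparisons with control. It read 34.1 and 80.9 CPM in control, 28 and 18.4 in CAF-1 OFF, and 5.69 and 23.6 in HOXA9 OFF. Both controls were above every other library, but the libraries of each group were far apart. The log2 fold change was -1.30 ± 0.65 SE in CAF-1 OFF (edgeR FDR = 0.534) and -1.98 ± 0.67 in HOXA9 OFF (edgeR FDR = 0.0651). Without an expression filter edgeR gave it FDRs of 0.00336 and 3.97e-07, and over the other alternatives they ran from 0.153 to 0.951 in CAF-1 OFF and from 0.00242 to 0.291 in HOXA9 OFF.

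In HOXA9 OFF the members lay slightly lower together. Of 85 members, 72 were lower than in control and 13 higher, with a median log2 fold change of -0.23, and the median of all genes was -0.003. Both HOXA9 OFF libraries lay below both controls in 57 members (67.1%), where 35.9% of all genes did so, and above both in 7 members, where 35.1% of all genes did. By edgeR at 1.5-fold and FDR under 0.05, 2 members fell (2.35%), beside 8.97% of all genes, and 0 rose, beside 13.0%. With no fold minimum, 10 members were lower (11.8%), where 13.8% of all genes were. In a fit of only the 4 libraries compared this count was 25, and 2816 of 12164 genes there passed the call rule in either direction. The count fell without a control or HOXA9 OFF library and rose without a CAF-1 OFF library, as did the calls over all genes. Such fits leave 1 library in a group. At an FDR under 0.05 with all 6 libraries, 0 members were higher, where 16.0% of all genes were. At an unadjusted p under 0.05 the members counted 26 lower and 1 higher, against 20.2% and 21.7% of all genes, and DESeq2's Wald test gave an adjusted p under 0.05 to 18 lower members and 1 higher (21.2% and 1.18%), beside 15.2% and 17.7% of all genes.

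The summed level of all 92 members was 17870 and 19820 CPM in control and 15650 and 15340 in HOXA9 OFF, with means of 18840 ± 1380 and 15490 ± 219 (SD, n = 2). That is 17.8% lower, and a permutation of 2 against 2 libraries cannot give a p below 0.33. By complex the sum was 23.4% lower for complex III, 21.3% for V, 14.3% for II, 12.7% for I and 12.4% for IV. Control replicate 2 was the higher of the controls in all these sums. Against control replicate 1 alone, a comparison added after seeing the data, the sum was 17.4% lower for complex III, 17.9% for V, 12.4% for II, 7.64% for I and 5.49% for IV. Without control replicate 2 the median log2 fold change of the members was -0.15, and without control replicate 1 it was -0.34.

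**Figure D3:**
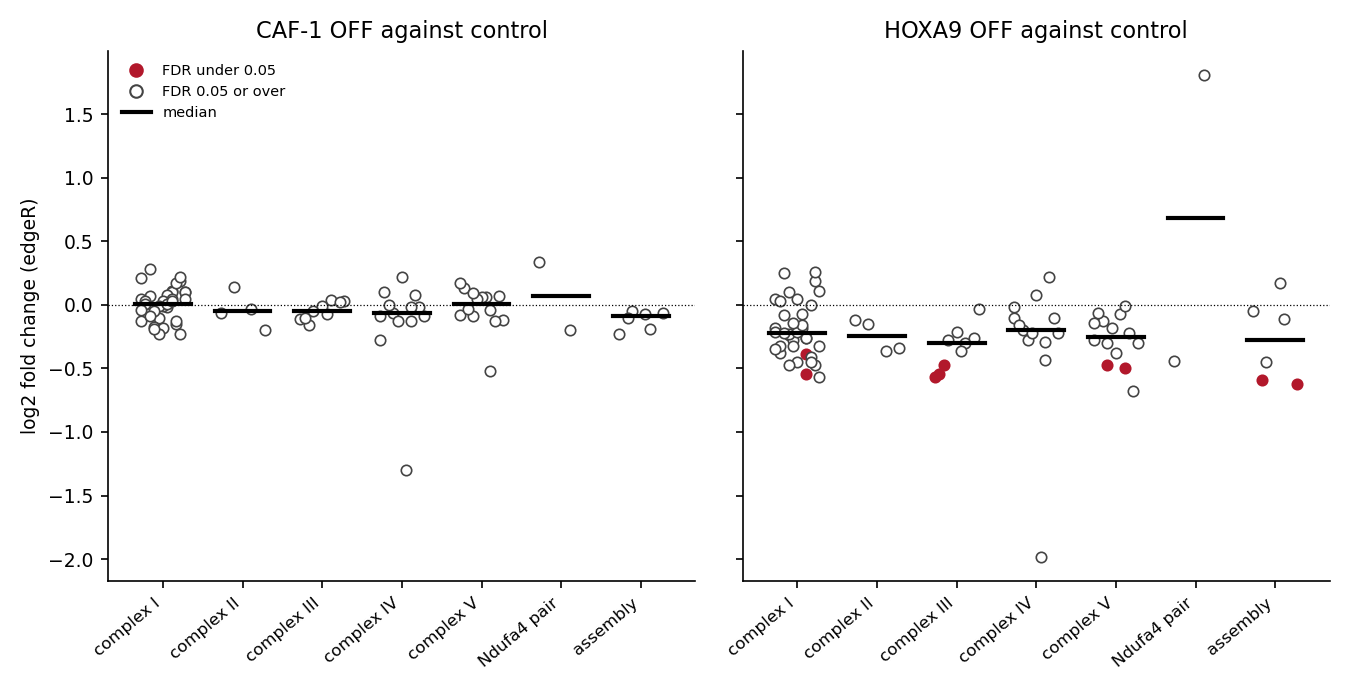
Log2 fold change by edgeR of each tested member against control in CAF-1 OFF (left) and HOXA9 OFF (right), by complex. Filled points have an FDR under 0.05 and bars are medians. In CAF-1 OFF the medians of complexes I to V lie between -0.06 and 0.01 and no point is filled, and in HOXA9 OFF they lie between -0.30 and -0.20. Cox4nb, also under an FDR of 0.05 in HOXA9 OFF, is not shown.

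In complex I, which takes electrons from NADH, 27 of 36 subunits were lower in HOXA9 OFF and 9 higher, at a median log2 fold change of -0.22, and in 20 the libraries lay below both controls, as 35.9% of all genes did. Ndufab1, the mitochondrial acyl carrier protein and a subunit of the complex (chr7:129228917-129245400, minus strand, NCBIM37), was at 31.1 CPM in both controls, 34.2 and 32.6 in CAF-1 OFF, and 19.9 and 22.8 in HOXA9 OFF. The HOXA9 OFF libraries were the lowest pair (log2 fold change -0.54 ± 0.13 SE, edgeR FDR = 0.0208), and 43.7% of its 50-base stretches occur elsewhere in the genome. Ndufa10, an accessory subunit, was at 215 and 224 CPM in control and 163 and 172 in HOXA9 OFF (edgeR FDR = 0.0256). Ndufa12, an accessory subunit whose place is held by NDUFAF2 during assembly, had the largest difference of the complex at -0.57 ± 0.19 SE and just missed the cutoff (edgeR FDR = 0.0586). In the other direction, Ndufs4 was at 107 and 96.6 CPM and Ndufb3 at 115 and 91.9 CPM in HOXA9 OFF, above both controls, at edgeR FDRs of 0.129 and 0.214.

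All 4 genes of complex II, succinate dehydrogenase, were below both controls in both HOXA9 OFF libraries, as 35.9% of all genes were. At an FDR under 0.05, 0 were lower by edgeR or by DESeq2, where 13.8% and 15.2% of all genes were. At an unadjusted edgeR p under 0.05, 2 were lower, where 20.2% of all genes were. Sdha, the flavoprotein that oxidizes succinate, was at 486 CPM in both controls and at 442 and 450 in HOXA9 OFF, a log2 fold change of -0.12 ± 0.09 SE. Sdhb, the iron-sulphur subunit, went from 147 and 167 CPM in control to 125 and 120 in HOXA9 OFF, at -0.36 ± 0.14 SE and an edgeR FDR of 0.0875. Sdhc was at 195 and 197 CPM in control and 183 and 170 in HOXA9 OFF. Sdhd was at 362 and 392 CPM in control, 360 and 297 in CAF-1 OFF, and 296 and 299 in HOXA9 OFF. The membrane anchors Sdhc and Sdhd thus stood at log2 fold changes of -0.15 and -0.34 in HOXA9 OFF, with edgeR FDRs of 0.31 and 0.0755.

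Complex III, which hands electrons to cytochrome c, had the lowest median of the complexes at -0.30. All 9 of its genes were lower in HOXA9 OFF, 8 of them without overlap (35.9% of all genes), and 3 had an FDR under 0.05 with no fold minimum (13.8% of all genes). Cyc1, cytochrome c1 (chr15:76173953-76176364, plus strand, NCBIM37), was at 273 and 324 CPM in control, 291 and 261 in CAF-1 OFF, and 196 and 205 in HOXA9 OFF. It was lower in both HOXA9 OFF libraries than in any other, at a log2 fold change of -0.57 ± 0.12 SE (edgeR FDR = 0.0142), just under the 1.5-fold minimum. Uqcrc2, a core protein of the complex (chr7:127778690-127802992, plus strand), read 374 and 398 CPM in control, 352 and 340 in CAF-1 OFF, and 275 and 283 in HOXA9 OFF. Its log2 fold change was -0.47 ± 0.09 SE in HOXA9 OFF (edgeR FDR = 0.0117) and -0.16 ± 0.09 in CAF-1 OFF (edgeR FDR = 0.609). Uqcrq, a small subunit beside cytochrome b, was at 283 and 358 CPM in control and at 223 and 219 in HOXA9 OFF, with an edgeR FDR of 0.04. Only Uqcrb overlapped between the groups, at a log2 fold change of -0.03.

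Complex IV, cytochrome c oxidase, had 11 of 13 tested genes lower in HOXA9 OFF, a median of -0.20, and 0 with an FDR under 0.05 by edgeR (2 at an unadjusted p under 0.05, where 20.2% of all genes were lower, and 1 lower by DESeq2, where 15.2% were). Cox4i1 was at 801 and 899 CPM in control and at 794 and 792 in HOXA9 OFF, a log2 fold change of -0.10 ± 0.14 SE. Cox5a, which lies on the matrix side of the enzyme, was at 96.7 and 112 CPM in control. In HOXA9 OFF it was at 77.6 and 77.5, a log2 fold change of -0.43 ± 0.14 SE with an edgeR FDR of 0.0623. Cox7a2l, a factor that joins complexes III and IV into supercomplexes, stood at 113 and 109 CPM in control and 135 and 123 in HOXA9 OFF. It was above both controls at a log2 fold change of 0.22 ± 0.13 SE (edgeR FDR = 0.249), with 54.3% of its stretches found elsewhere in the genome.

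All 14 tested genes of complex V were lower in HOXA9 OFF, 10 of them without overlap (35.9% of all genes), with a median of -0.25. Atp5b (chr10:127520329-127527447, plus strand, NCBIM37), which holds the catalytic sites of ATP synthase, read 2760 and 2920 CPM in control, 2840 and 2700 in CAF-1 OFF, and 1960 and 2060 in HOXA9 OFF. The HOXA9 OFF libraries lay far below the other 4, which overlapped, and the log2 fold change of -0.50 ± 0.09 SE had the lowest FDR of any member (edgeR FDR = 0.00766). Atp5o, which encodes the stalk protein OSCP, was at 216 and 245 CPM in control and 165 and 167 in HOXA9 OFF (edgeR FDR = 0.031). Atp5g3 went from 573 and 655 CPM to 468 and 474 (log2 fold change -0.38, edgeR FDR = 0.0533). Atp5g1 was at 6.83 and 6.1 CPM in control and at 4.54 and 3.52 in HOXA9 OFF, with 86.8% of its stretches found elsewhere (log2 fold change -0.68, edgeR FDR = 0.0966).

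Both members that fell by the call rule were assembly factors of complex I. Ndufaf2, a chaperone related to NDUFA12 (chr13:108842784-108948819, minus strand, NCBIM37), was at 33.9 and 34.8 CPM in control, 36.7 and 29.1 in CAF-1 OFF, and 22.1 and 22.5 in HOXA9 OFF. Ndufaf4, which acts early in building the complex (chr4:24825230-24832148, plus strand), was at 66.2 and 69 CPM in control, 65.4 and 60.9 in CAF-1 OFF, and 40.9 and 48.7 in HOXA9 OFF. For both, the HOXA9 OFF libraries were below all others, and 0% of their stretches occurred elsewhere. The log2 fold changes were -0.62 ± 0.15 SE for Ndufaf2 (edgeR FDR = 0.0206) and -0.59 ± 0.12 SE for Ndufaf4 (edgeR FDR = 0.0131). Both lie close to the fold minimum, and their FDRs ran from 0.0049 to 0.108 and from 0.00067 to 0.0978 over 14 alternatives. Leaving out either control library ended both calls, as did leaving out HOXA9 OFF replicate 1, and leaving out HOXA9 OFF replicate 2 ended that of Ndufaf2. Ndufaf1, another assembly factor of complex I, was at 34.9 and 39.2 CPM in control and 27.6 and 26.7 in HOXA9 OFF, below both controls (log2 fold change -0.45 ± 0.14 SE, edgeR FDR = 0.057). Ndufaf3, a partner of NDUFAF4, was at 31.3 and 32.5 CPM in control and 39.1 and 32.6 in HOXA9 OFF (log2 fold change 0.17 ± 0.18 SE), and Atp5s was at 11.2 and 13.2 against 12.2 and 11.3.

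Cox4nb, the symbol outside the chain, was at 88.1 and 94.1 CPM in control, whereas HOXA9 OFF had 64.9 and 70.5, with a log2 fold change of -0.43 and an FDR of 0.0455 by edgeR. With Atp5b, Uqcrc2, Ndufaf4, Cyc1, Ndufaf2, Ndufab1, Ndufa10, Atp5o and Uqcrq it made up the 10 members lower in HOXA9 OFF at an FDR under 0.05. Each of the 10 lost that FDR under some alternative, with highest edgeR FDRs from 0.0632 for Atp5b to 0.237 for Uqcrq.

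**Figure D4:**
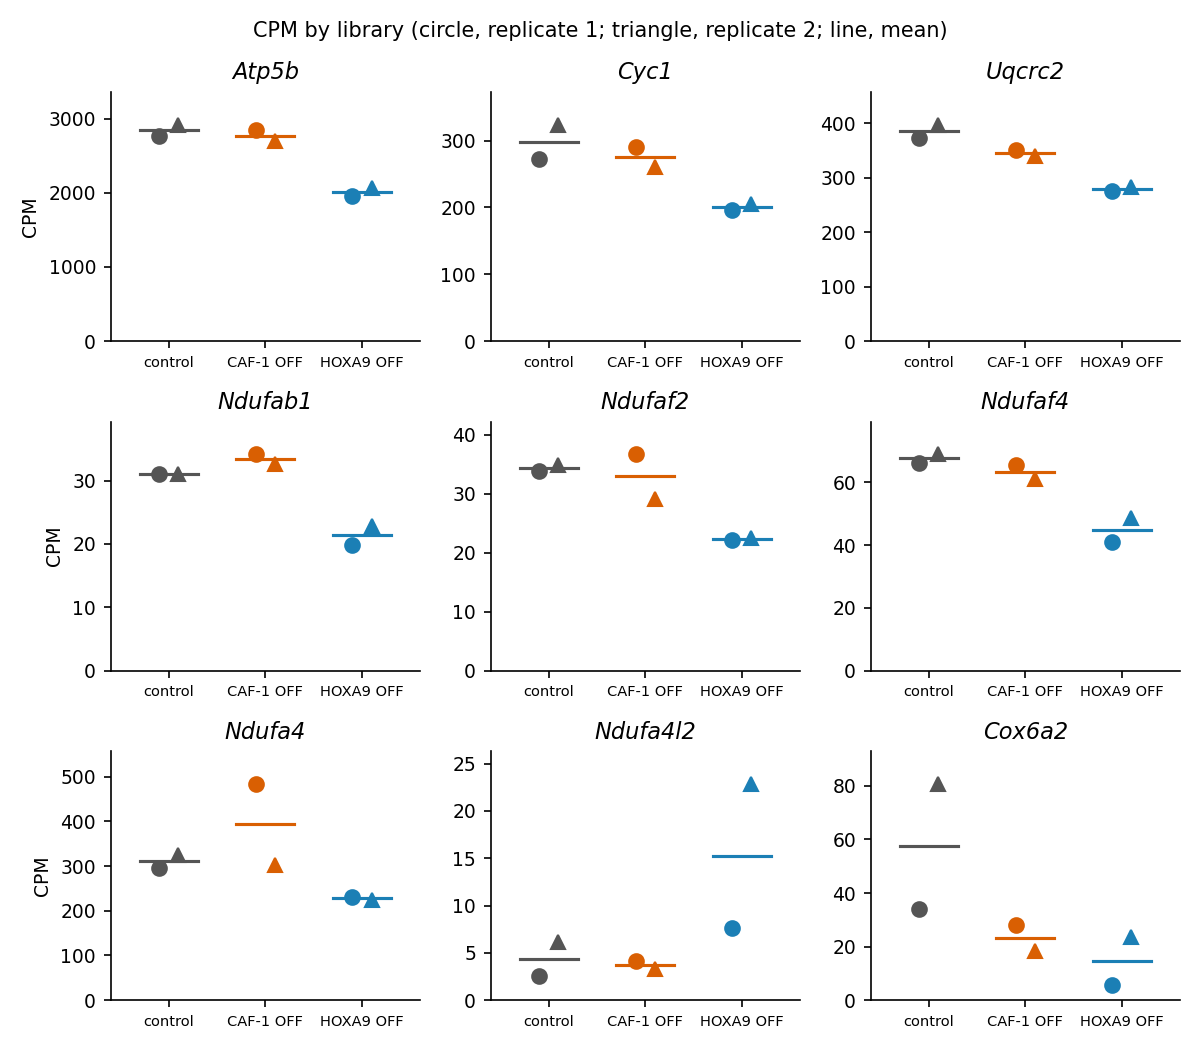
CPM in each library for 9 members (linear axes from 0, each with its own scale; circles are replicate 1, triangles replicate 2, lines the mean of 2 libraries). In the first 6 panels both HOXA9 OFF libraries lie below the other 4. Ndufa4 is set apart in CAF-1 OFF by replicate 1 alone, and Ndufa4l2 and Cox6a2 show wide gaps between libraries of a group.

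Promoter sequences, from 250 bases before to 50 after the start site in the RefSeq table of GRCm38.p6, were matched for 74 of the 92 members, 70 of them tested. Among those not matched were Atp5a1, Atp5l2, Cox4i1, Cox4i2, Cox4nb, Cox6a2, Cox6c, Cox8c, Cyc1, Ndufa2, Ndufa4l2, Ndufb9, Ndufs1, Sdhc, Uqcrb, Uqcrc2 and Uqcrq. The matched windows were searched on both strands for 4 motifs of factors known to act on the chain's genes. GCGCATGC, the core bound by NRF1, was in 11 member promoters (14.9%) and in 2.71% of 27025 promoters in the table. The ETS motif CCGGAAG, bound by GABP and its relatives, was in 17 (23.0%), and in 9.04% of all. AAGATGGCG, bound by YY1, was in 8 (10.8%) and in 1.5% of all, and the palindromic E-box CACGTG, bound by MYC and others, in 7 (9.46%) and in 7.02% of all. The NRF1 core overlaps its own reverse complement in GCGCATGCGC. A match describes letters in the window and does not show binding.

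Shown are the promoters of both members that fell by the call rule, Ndufaf4 and Ndufaf2, that of Ndufab1, the subunit of complex I with the lowest FDR, and that of Atp5j, which encodes coupling factor 6 and holds an ETS and a YY1 motif. Capitals mark the motif letters. Sequences run 5′ to 3′ on the gene's strand, at chr4:24897833-24898132 (plus), chr13:108158576-108158875 (minus), chr7:122101799-122102098 (minus) and chr16:84834927-84835226 (minus) of GRCm38.p6.
Ndufaf4: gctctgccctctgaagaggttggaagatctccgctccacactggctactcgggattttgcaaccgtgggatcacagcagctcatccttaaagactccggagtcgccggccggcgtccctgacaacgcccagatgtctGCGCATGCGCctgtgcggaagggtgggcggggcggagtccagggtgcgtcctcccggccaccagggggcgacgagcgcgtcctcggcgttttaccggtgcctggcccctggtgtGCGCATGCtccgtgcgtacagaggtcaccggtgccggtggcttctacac
Ndufaf2: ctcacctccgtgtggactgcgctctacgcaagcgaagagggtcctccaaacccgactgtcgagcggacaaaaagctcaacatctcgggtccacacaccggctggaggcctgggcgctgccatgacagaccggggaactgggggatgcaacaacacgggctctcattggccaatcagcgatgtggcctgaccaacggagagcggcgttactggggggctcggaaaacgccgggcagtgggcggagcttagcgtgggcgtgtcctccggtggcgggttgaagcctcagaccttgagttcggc
Ndufab1: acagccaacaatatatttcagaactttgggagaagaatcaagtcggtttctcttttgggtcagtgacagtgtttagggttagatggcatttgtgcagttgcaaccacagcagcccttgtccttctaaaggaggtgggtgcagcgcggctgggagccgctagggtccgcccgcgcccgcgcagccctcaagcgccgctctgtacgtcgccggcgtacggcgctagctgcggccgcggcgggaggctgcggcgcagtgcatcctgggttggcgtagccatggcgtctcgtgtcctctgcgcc
Atp5j: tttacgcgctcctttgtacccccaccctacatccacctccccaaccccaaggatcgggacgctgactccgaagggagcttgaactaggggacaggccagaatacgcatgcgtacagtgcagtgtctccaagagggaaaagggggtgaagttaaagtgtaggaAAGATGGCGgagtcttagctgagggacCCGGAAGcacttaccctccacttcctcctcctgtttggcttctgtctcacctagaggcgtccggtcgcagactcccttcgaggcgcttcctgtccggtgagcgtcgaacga
Ndufaf4 held the NRF1 core in both orientations at 1 place and in 1 orientation nearer the start, and Ndufaf2 and Ndufab1 held none of the 4 motifs. Members with the NRF1 core had a median log2 fold change of -0.26 in HOXA9 OFF (10 tested) and the other 60 one of -0.23. For the ETS motif the medians were -0.22 with it (17) and -0.26 without (53), for YY1 -0.20 (8) and -0.25 (62), and for the E-box -0.35 (7) and -0.23 (63). Of the 6 matched members lower at an FDR under 0.05 in HOXA9 OFF, 1 held an NRF1 core and 0 any of the other motifs.

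CAF-1 OFF was then set against HOXA9 OFF directly. This comparison shares its libraries with both comparisons above. Of 85 members, 71 were higher in CAF-1 OFF and 14 lower, with a median log2 fold change of 0.22, and that of all genes was 0.001. The median was 0.03 without CAF-1 OFF replicate 1, so it rests on that library, and 0.38 without CAF-1 OFF replicate 2. Both CAF-1 OFF libraries lay above both HOXA9 OFF libraries in 41 members, beside 33.0% of all genes, and below both in 4, beside 33.7%. By edgeR at 1.5-fold and FDR under 0.05, 3 members were higher in CAF-1 OFF, where 9.56% of all genes were, and 1 was lower, where 12.6% were. With no fold minimum these were 11 (14.3% of all genes) and 1 (15.9% of all genes). The 11 rose without CAF-1 OFF replicate 2 and fell without any other library, while the calls over all genes fell each time. Such fits leave 1 library in a group. In a fit of only the 4 libraries compared the 11 became 8, and 2596 of 12251 genes there passed the call rule in either direction.

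The members higher in CAF-1 OFF were Ndufab1, Ndufa12 and Ndufa4. Ndufab1 had a log2 fold change of 0.65 ± 0.13 SE (edgeR FDR = 0.0119), and leaving out HOXA9 OFF replicate 1 ended the call (FDR = 0.0815 by edgeR). Ndufa12 read 30 and 28.2 CPM in control, 36 and 26.3 in CAF-1 OFF, and 17.9 and 21.3 in HOXA9 OFF, and 26.5% of its stretches occur elsewhere in the genome. Its log2 fold change was 0.67 ± 0.19 SE (edgeR FDR = 0.0354), with FDRs from 0.00594 to 0.176 over 14 alternatives. The call of Ndufa12 was kept only without CAF-1 OFF replicate 2 among the fits that leave out a library. With a replicate block the call of Ndufa12 was lost as well (edgeR FDR = 0.0549). Ndufa4 (chr6:11850373-11857446, minus strand, NCBIM37) had CPM of 232 and 224 in HOXA9 OFF against the 485 and 303 of CAF-1 OFF (log2 fold change 0.79 ± 0.21 SE, edgeR FDR = 0.0308). Without CAF-1 OFF replicate 1 the log2 fold change of Ndufa4 was 0.41 (FDR = 0.0599 by edgeR), and the call was also lost without either HOXA9 OFF library (FDRs of 0.109 and 0.116).

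The member lower in CAF-1 OFF was Ndufa4l2, the paralog of Ndufa4 known as a target of hypoxia-inducible factor (chr10:126951995-126954208, plus strand, NCBIM37). It read 2.59 and 6.15 CPM in control, 4.16 and 3.34 in CAF-1 OFF, and 7.62 and 22.9 in HOXA9 OFF. Both HOXA9 OFF libraries were above the other 4, though they differed widely from each other. CAF-1 OFF stood at a log2 fold change of -2.02 ± 0.60 SE from HOXA9 OFF (edgeR FDR = 0.0432), and at -1.02 without HOXA9 OFF replicate 2 (FDR = 0.222 by edgeR). The call was also lost without either CAF-1 OFF library (FDRs of 0.115 and 0.139). HOXA9 OFF against control gave 1.81 ± 0.59 SE (edgeR FDR = 0.059), and Ndufa4l2 passed the call rule there with a replicate block (FDR = 0.04) and by DESeq2 (adjusted p = 0.00838). Its FDRs ran from 4.92e-05 with no expression filter to 0.324 without HOXA9 OFF replicate 2. Summed with Ndufa4, its more abundant paralog, the pair stood at 297.6 and 332 CPM in control, 489.4 and 306.1 in CAF-1 OFF and 239.7 and 246.9 in HOXA9 OFF.

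Genes that work beside the chain were read from lists of known names in the same fits. In CAF-1 OFF against control, edgeR and DESeq2 each called 0 of 146 tested genes of these lists, where they called 0.0321% and 1.60% of all genes. At an unadjusted edgeR p under 0.05, 1 was higher and 4 lower, where 6.48% and 4.2% of all genes were. Of 17 genes of the TCA cycle, which feeds the chain with electrons, 16 were lower in HOXA9 OFF (median -0.34), 8 of them at an FDR under 0.05 and 2 of these by the call rule. These were Idh2, mitochondrial isocitrate dehydrogenase, at 619 and 658 CPM in control and 396 and 391 in HOXA9 OFF (FDR = 0.00471 by edgeR, log2 fold change -0.70), and Suclg2, a subunit of succinyl-CoA ligase, with a log2 fold change of -0.63. Of 75 tested genes of the mitochondrial ribosome, which translates the subunits encoded in mitochondrial DNA, 67 were lower (median -0.33), 28 at an FDR under 0.05 and 10 by the call rule. The largest were Mrpl52 at -1.35, Mrpl12 at -0.89, Mrps6 at -0.85, Mrps22 at -0.80, Mrpl47 at -0.76 and Mrpl38 at -0.66 on the log2 scale. The shares to set these counts against are the 8.97% and 13.8% of all genes given above for HOXA9 OFF.

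Of 14 tested regulators of the chain's genes, 12 were lower in HOXA9 OFF and 2 higher. At an FDR under 0.05, 4 were lower (13.8% of all genes), and 3 fell by the call rule (8.97% of all genes). Myc was at 582 and 550 CPM in control, 532 and 506 in CAF-1 OFF, and 306 and 296 in HOXA9 OFF (FDR = 0.00139 by edgeR, log2 fold change -0.91 ± 0.09 SE). Ppargc1b, a coactivator of mitochondrial genes, went from 9.74 and 9.98 CPM in control to 4.25 and 5.27, and stood at 14.2 and 14.1 in CAF-1 OFF. Pprc1, a related coactivator, had a log2 fold change of -0.63 (edgeR FDR = 0.00847). By contrast Gabpa, a GABP subunit, was at 124 and 111 CPM in control and 114 and 117 in HOXA9 OFF, and Ppargc1a had at most 1 count in any library. Of 25 tested assembly factors outside the naming rule, 20 were lower in HOXA9 OFF, 7 at an FDR under 0.05 (13.8% of all genes). Ecsit, which takes part in complex I assembly, fell by the call rule (log2 fold change -0.67, edgeR FDR = 0.00814), as 8.97% of all genes did. Of 15 carriers and partners such as the ATP carriers and the porins, 11 were lower, 3 at an FDR under 0.05 (13.8% of all genes). By the call rule 0 were lower in edgeR (8.97% of all genes) or DESeq2, and 5 were at an unadjusted edgeR p under 0.05 (20.2% of all genes). The count files held no symbol starting with mt-, the prefix searched for subunits encoded in mitochondrial DNA, so these were not analysed here.

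Length was examined for HOXA9 OFF as well, because short transcripts differed between the CAF-1 OFF libraries. Members with under 1.5 kb of exon had a median log2 fold change of -0.21 against control (46 members), and other protein-coding genes of that length one of -0.14 (819 genes, 62.9% of them lower). Members of 1.5 kb and over had a median of -0.30 (37 members, 91.9% lower), where other long protein-coding genes had one of 0.01 (8509 genes, 49% lower). Cytosolic ribosomal protein genes were lower as well, at a median of -0.27 (66 genes, 97% lower). Among members with under 10% of their stretches elsewhere in the genome, the median in HOXA9 OFF was -0.26, with 51 lower and 8 higher.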

How the data were processed

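RNA was sequenced with a directional kit, and per the labels and methods the authors mapped reads with STAR to mm9 and used HTSeq for counting. Each deposited table held whole, unnormalized counts by gene symbol, plus 5 tally lines that were left out. The annotation, strand setting, overlap mode and read length were not given in the sources used here.

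Genes were kept by filterByExpr and TMM-scaled (factors 0.954 to 1.03), and all 6 libraries were fitted in edgeR 4.0.16 (R 4.3.3) with 1 mean per group. Calls used the quasi-likelihood test at 1.5-fold and a Benjamini-Hochberg FDR under 0.05, the cutoffs of the study. CPM used the scaled library sizes and, per kb, 1 coding transcript per gene. SE came from the F statistic. DESeq2 1.42.0, other scalings and filters, a replicate block and fits without each library were alternatives. Libraries of a group differed by far more than sampling noise (chi-square per degree of freedom of at least 20.5). Floors cover counting error only.

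Coordinates are 1-based, from GENCODE on NCBIM37, the assembly that mm9 names. The 50-base stretches were searched in that genome on both strands.

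Members and lists were chosen with earlier results of these data known. Members named by rule were those called, the largest rise and fall per complex at a mean of at least 5 CPM against control, the succinate dehydrogenase genes, Cyc1, the highest member per kb in each complex and isoform families. From each list up to 6 called genes were named. The remaining members, Gabpa and Ppargc1a, and the length classes, were chosen after values were seen.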

Additional observations from a re-analysis of the deposited data

How the results depend on the processing

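The direction of the median over members held under every alternative in HOXA9 OFF against control, from -0.34 to -0.15 on the log2 scale, and in CAF-1 OFF against HOXA9 OFF, from 0.03 (without CAF-1 OFF replicate 1) to 0.38 (without CAF-1 OFF replicate 2). In CAF-1 OFF against control it ran from -0.20 to 0.13 when a library was left out. Counts of called members were small and moved with the setting. The calls over all genes moved too. In HOXA9 OFF against control they were 2843 with library size alone, 3215 of 19883 with no expression filter and 2680 with a replicate block. In HOXA9 OFF against control the 2 calls became 6 with library size alone, 4 with no expression filter, 4 with a replicate block, 10 with no fold minimum, and 0 for structural subunits only or at 2-fold and FDR under 0.01, and ranged from 0 to 2 when a library was left out. In CAF-1 OFF against control the 0 calls became 1 with no expression filter (Cox6a2) and stayed at 0 when a library was left out. In CAF-1 OFF against HOXA9 OFF the 4 calls became 12 with no fold minimum and 0 at 2-fold and FDR under 0.01, and ranged from 1 to 9 when a library was left out. With library size alone the median of all genes was -0.084 in HOXA9 OFF and 0.078 in the direct comparison, and members lower at an FDR under 0.05 in HOXA9 OFF numbered 23 in place of 10. Beyond what a looser or stricter cutoff, fewer genes or fewer libraries bring by construction, the cause was not tested.

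The labels do not say that replicate numbers pair cultures. For that reason the numbers were not treated as pairs. Deviations from the group means of libraries with the same number correlated at -0.178 across genes for CAF-1 OFF and control, and at 0.033 for CAF-1 OFF and HOXA9 OFF. For HOXA9 OFF and control the correlation was 0.456, so same-numbered libraries deviated alike there. With a replicate block 8 members were lower in HOXA9 OFF against control at an FDR under 0.05. A crossed replicate block, chosen after seeing the data, gave 4 calls in HOXA9 OFF against control and 19 members lower at that FDR.

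For 36 members followed by name, 61 of 1509 values under the alternatives had the opposite sign, 56 of them on leaving out a library, and in 10 the larger of both values reached 1 SE. For these 10, leaving out single libraries gave, for CAF-1 OFF against control, -0.04 to 0.66 for Ndufa4, -0.28 to 0.22 for Ndufb8 and -0.22 to 0.21 for Cox6b1 (without CAF-1 OFF replicate 1 or 2), and up to 0.18 for Cox8a (without control replicate 2). For CAF-1 OFF against HOXA9 OFF it gave 0.00 to 0.30 for Sdhd, -0.18 to 0.20 for Cox4i1, -0.01 to 0.41 for Cox6b1, -0.17 to 0.34 for Cox7b and -0.30 to 0.03 for Cox7a2l (the same libraries), and -0.01 to 2.03 for Cox6a2 (without HOXA9 OFF replicate 1 or 2). A further 31 values passed and 27 lost the cutoff under an alternative. With 2 libraries per group, differences well under 1.5-fold are at the limit of the test.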

Other observations

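Progenitor and differentiation markers moved in the same libraries as the chain's genes. Of 5 progenitor markers, 4 fell in HOXA9 OFF against control by edgeR's call rule, where 8.97% of all genes did. Of 9 tested granulocyte and monocyte markers 8 rose, where 13.0% of all genes did. In CAF-1 OFF edgeR called 0 of these 9 (0.0321% of all genes) and DESeq2 called 5, all higher (1.36% of all genes were). At an unadjusted edgeR p under 0.05, 6 were higher, where 6.48% of all genes were. Of 7 megakaryocyte and erythroid markers in CAF-1 OFF, edgeR called 0 and DESeq2 called 2, both higher, beside the same shares. At an unadjusted edgeR p under 0.05, 3 were higher and 0 lower, where 6.48% and 4.2% of all genes were. Their part in the lower levels of the chain was not tested.

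The pseudogene symbol Atp5l-ps1 had 1 count in CAF-1 OFF replicate 2 and 0 in the other 5 libraries, and Atp5l itself, with 89.4% of its stretches found elsewhere, stood between 0.416 and 0.871 CPM.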
